A study of Mus musculus with 4 samples.

Results

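The E2F transcription factor family of the mouse was followed in sorted hematopoietic stem and progenitor cells (HSPC), the cells from which all blood lineages arise. Its members were taken by gene symbol, E2f1 to E2f8, and all 8 were found among the 24015 symbols listed in each count table. RNA-seq libraries came from 2 caNIK samples and 2 control samples. In caNIK mice, animals with a Rosa-loxp-STOP-loxp-NIK allele were crossed with Vav-iCre mice, whose Cre is driven throughout the blood system, so that HSPC made a mutant NIK that TRAF3 cannot target. NIK is the kinase at the head of the non-canonical NF-kB pathway. The labels call the other samples control without naming their alleles, and the sources used here give no sort markers, tissue, age or pooling of animals. Nor do the labels tie the 2 libraries of a group to different animals. Each p-value is therefore set against the spread of these libraries alone, and that spread may be technical.

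E2F proteins bind the promoters of genes for DNA synthesis and cell division, most of them as dimers with a DP protein. E2f1, E2f2 and E2f3 are known as activators that are held in check by the retinoblastoma protein until the cell enters S phase. E2f4 and E2f5 act mainly as repressors together with the other pocket proteins, E2f6 represses without a pocket protein, and E2f7 and E2f8 are atypical repressors that need no DP partner. In blood formation, mouse E2f2 and E2f4 are known for their part in the maturation of red cell precursors, and activator E2Fs for the survival of dividing progenitors.

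Library totals ran from 18574452 to 23162766 counts, and genes listed were tested when they passed a filter on low counts, which kept 14191, all 8 E2F members among them. Map3k14, which encodes NIK, had 177 and 192 CPM (read counts scaled to a common library size, TMM-normalised) in the caNIK libraries and 30.2 and 25.1 CPM in the control libraries and was higher in both caNIK libraries. Log2 CPM correlated across genes at 0.974 within the caNIK pair, 0.972 within the control pair and 0.839 to 0.861 between groups. HSPC markers were present in every library: Kit, the stem cell factor receptor, lay at 558 and 506 CPM in caNIK and 610 and 613 CPM in control HSPC. Cd34 lay at 143 and 84.1 CPM in caNIK and 793 and 642 CPM in control HSPC, and Flt3 at 113 and 58.3 CPM and 593 and 472 CPM in the same order. The summed level of the 10 HSPC markers was 1764 and 1255 CPM in caNIK and 3081 and 2703 CPM in control HSPC. Of the 10, 1 was higher in caNIK, 4 were lower and 5 did not pass. Over all tested genes 13.8% were higher and 8.21% lower. The higher marker was Gata2, at 361 and 286 CPM in caNIK and 108 and 155 CPM in control HSPC.

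Of the 3 activator genes, E2f2 rose about 10-fold in caNIK HSPC while E2f1 and E2f3 fell. The other 5 members, the repressors, did not pass the test. The make-up of the family's reads also differed: E2f2 supplied 44.5% of all E2F reads in caNIK and 7.47% in control HSPC.

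The promoter of the member that rose is set here beside those of E2f3, which fell, and E2f7, which did not pass, because the family is known to regulate its own genes. Each sequence is the 250 bases before a transcription start in RefSeq, in the build GRCm38.p6, which differs from the mm9 build named for the counts, and runs 5′ to 3′ on the strand of the gene. Capitals mark a match, on either strand, to the E2F motif in its 4 forms TTTCCCGC, TTTCGCGC, TTTGCCGC and TTTGGCGC.
E2f2 (chr4:136172024-136172273, plus strand): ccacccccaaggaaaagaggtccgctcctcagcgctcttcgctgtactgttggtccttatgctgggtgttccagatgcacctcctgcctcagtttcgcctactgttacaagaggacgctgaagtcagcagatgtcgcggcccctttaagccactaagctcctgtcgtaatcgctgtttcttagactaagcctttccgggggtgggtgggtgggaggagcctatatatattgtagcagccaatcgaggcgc
E2f3 (chr13:29986064-29986313, minus strand): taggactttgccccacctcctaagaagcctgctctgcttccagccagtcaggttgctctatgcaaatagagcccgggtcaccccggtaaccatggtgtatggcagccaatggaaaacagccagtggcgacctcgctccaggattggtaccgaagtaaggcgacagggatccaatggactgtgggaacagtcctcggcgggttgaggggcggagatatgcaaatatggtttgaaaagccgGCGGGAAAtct
E2f7 (chr10:110745189-110745438, plus strand): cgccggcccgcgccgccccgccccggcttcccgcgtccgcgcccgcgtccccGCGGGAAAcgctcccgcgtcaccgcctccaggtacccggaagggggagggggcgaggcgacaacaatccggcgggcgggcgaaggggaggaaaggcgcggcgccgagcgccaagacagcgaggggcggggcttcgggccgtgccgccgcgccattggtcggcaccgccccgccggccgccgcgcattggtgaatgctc
The window of E2f2 held no match, and those of E2f3 and E2f7 held 1 each, at 11 and 198 bases before the start. The E2f3 and E2f7 windows shown were the only member windows with a match, so they are not typical of the family. A match to these letters was found in 1.86% of 32851 promoter windows of this length. No match was found in the windows of E2f1, E2f6 or E2f8, nor in the second windows of E2f2 and E2f3, and the E2f1 window lay wholly inside annotated exons and is not shown. Promoters of E2f4 and E2f5 are not shown. Of the other motifs searched on both strands, the GATA motif, with AGATAA as 1 form, AGATAG as another, and both also beginning with T in place of the first A, was found in 26.5% of all windows and matched none of the member windows. The NF-kB consensus motif, found in 7.25%, matched once, in the E2f8 window. No match says only that these letters are not in these windows.

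E2f2 had 349 and 586 CPM in the caNIK libraries, against 44.6 and 48.7 CPM in the control libraries. Both caNIK libraries lay far above both control libraries, and the caNIK pair was the more spread of the pairs. In counts these were 6491 and 12150 reads in caNIK and 859 and 1144 reads in control HSPC. The mean was 467 ± 168 CPM in caNIK and 46.6 ± 2.96 CPM in control HSPC (SD, n = 2 each). The log2 fold change was 3.32 ± 0.27 (SE), with a 95% interval of 2.68 to 3.97 (edgeR adjusted p = 6e-04). By fold change it stood at position 767 from the top of the 14191 tested genes. The rise was called without each library in turn, at 2.88 to 3.65 on the log2 scale.

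E2f1, the activator best known for driving both S phase entry and cell death, had 49.1 and 52.7 CPM in the caNIK libraries, against 72.1 and 78.5 CPM in the control libraries. The groups did not overlap, and libraries of a group lay close together. The log2 fold change was -0.56 ± 0.15 (SE), 0.68 times the control level (edgeR adjusted p = 0.04). That call rested on all 4 libraries. The adjusted p was 0.089 and 0.06 without caNIK replicates 1 and 2, and 0.13 and 0.25 without control replicates 1 and 2, with fold changes of -0.64 to -0.50.

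E2f3, whose gene makes a longer and a shorter protein from separate starts, had 61.5 and 57.1 CPM in the caNIK libraries, against 102 and 96.9 CPM in the control libraries. The groups did not overlap here either, and the gap between them was several times the gap within each pair. The log2 fold change was -0.75 ± 0.15 (SE), or 0.60 times the control level (edgeR adjusted p = 0.014). Without control replicate 1 the adjusted p was 0.07, with a log2 fold change of -0.73. The counts are per gene and do not separate the 2 proteins' transcripts.

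Thus 3 of 8 members passed, 1 higher and 2 lower, where 22.0% of all tested genes passed, 13.8% higher and 8.21% lower. Libraries of the groups did not overlap for 4 of 8 members (E2f1, E2f2, E2f3 and E2f8), against 64.9% of all tested genes. Without 1 library, 1 or 2 members passed: E2f2 and E2f3 without caNIK replicate 1, caNIK replicate 2 or control replicate 2, and E2f2 alone without control replicate 1.

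Calls by other settings, used below for single lists, are read against their own background over all tested genes, given as the share higher and the share lower. With DESeq2 these were 16.4% and 10.4%, and with limma-voom 14.1% and 8.76%. With median-of-ratios factors they were 14.0% and 8.08%, with upper-quartile factors 13.1% and 9.84% and with library totals 12.7% and 9.37%. With a filter of at least 1 read in any library they were 13.4% and 8.17%, with at least 1 CPM in 2 libraries 14.2% and 9.18%, and with the replicate number as a block 17.6% and 12.4%. Leaving out caNIK replicate 1 gave 12.2% and 9.45%, and leaving out caNIK replicate 2 gave 11.3% and 6.46%. Without control replicate 1 they were 12.0% and 5.78%, and without control replicate 2 13.4% and 6.48%.

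**Figure D1:**
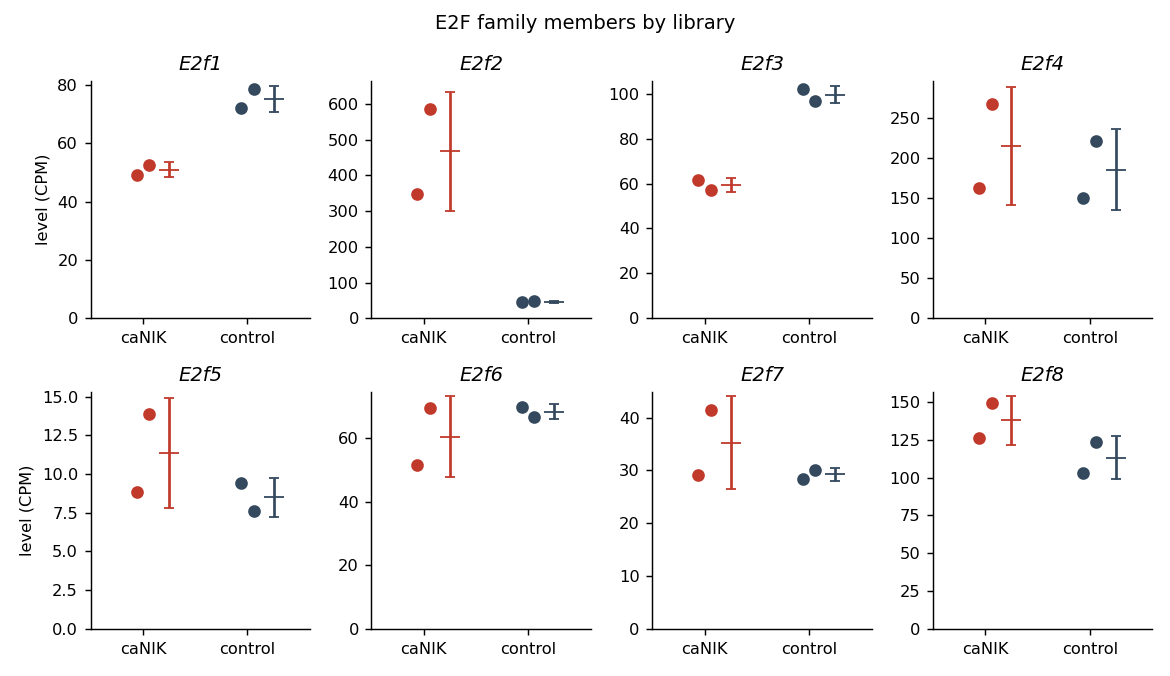
Level of each E2F family member in CPM, TMM-normalised, with a separate axis from 0 for each gene. Points are libraries (2 caNIK in red, 2 control in dark grey), and bars are the mean with its SD. E2f2 lies at 349 and 586 CPM in caNIK and 44.6 and 48.7 CPM in control HSPC, whereas E2f1 and E2f3 lie lower in caNIK.

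The canonical repressors did not pass. E2f4, the main E2F of quiescent cells, had 163 and 267 CPM in the caNIK libraries and 150 and 221 CPM in the control libraries. Replicate 2 was the higher library in both groups, and the groups overlapped. The log2 fold change was 0.21 with a 95% interval of -0.47 to 0.89 (edgeR adjusted p = 0.65), and it turned to -0.21 without caNIK replicate 2 and -0.06 without control replicate 1. E2f5, the least counted member, had 8.86 and 13.9 CPM in caNIK and 9.39 and 7.58 CPM in control HSPC, from 165 to 288 reads per library, and its log2 fold change of 0.42 had an interval of -0.41 to 1.26 (edgeR adjusted p = 0.44).

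E2f6, which silences germ line genes as part of a Polycomb complex, had 51.4 and 69.6 CPM in caNIK and 69.9 and 66.6 CPM in control HSPC. The control values fell within the caNIK range or just above it, and the interval of the log2 fold change was -0.62 to 0.28. Its fold change of -0.17 turned to 0.032 without caNIK replicate 1.

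Among the atypical repressors, E2f7 had 29.1 and 41.5 CPM in caNIK and 28.4 and 30.2 CPM in control HSPC. Only caNIK replicate 2 stood apart, and the log2 fold change of 0.27 (95% interval -0.27 to 0.81) became -0.031 without it. E2f8, which pairs with E2f7 in restraining S phase genes, had 126 and 149 CPM in caNIK and 103 and 123 CPM in control HSPC. Its groups did not overlap, but the gap between them was smaller than the gap within either pair, and the gene did not pass (log2 fold change 0.28, 95% interval -0.12 to 0.69, edgeR adjusted p = 0.28). In GENCODE M21, 610 of the 3880 exon bases of E2f8 lie opposite Gm2788. With no strand setting given for the counts, reads of the pair cannot be told apart. E2f5 shared 26 exon bases with 1810022K09Rik on the opposite strand, and the other 6 members shared none with another gene. A p that misses the threshold does not show that these 5 levels were equal.

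**Figure D2:**
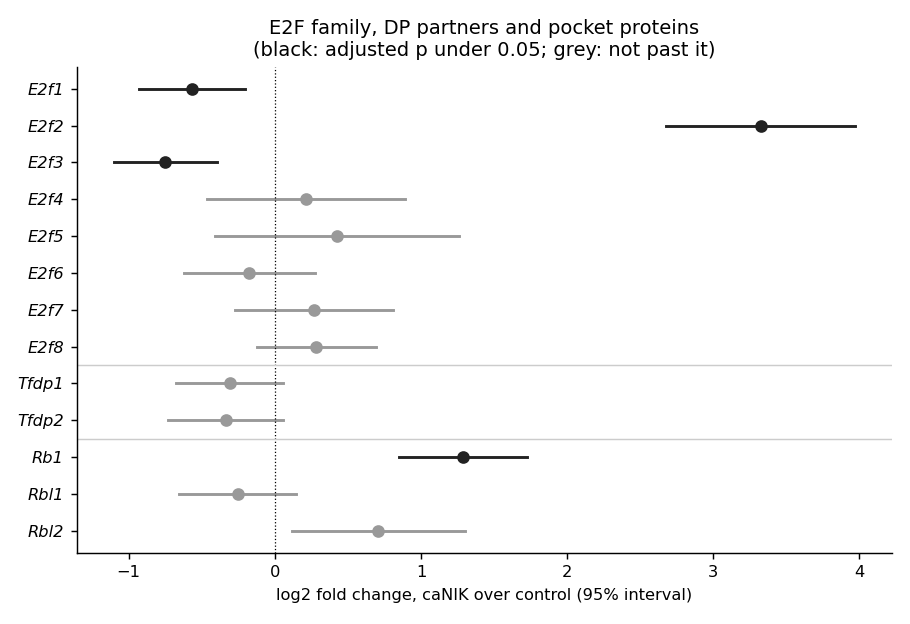
Log2 fold change of caNIK over control HSPC for the 8 E2F members, the 2 DP partners and the 3 pocket proteins, with 95% intervals from edgeR. Black marks genes past the threshold: E2f2 at 3.32, E2f1 at -0.56, E2f3 at -0.75 and Rb1 at 1.29.

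E2f2 held a larger share of the family's reads in caNIK HSPC. It took 41.6% of all E2F reads in caNIK replicate 1 (exact 95% binomial interval 40.8% to 42.4%) and 47.4% in caNIK replicate 2 (46.8% to 48.0%), against 7.69% (7.20% to 8.20%) and 7.24% (6.84% to 7.66%) in control replicates 1 and 2. The intervals cover counting error only. E2f1 took 5.87% and 4.27% in caNIK and 12.5% and 11.7% in control HSPC, and E2f3 took 7.34% and 4.62% in caNIK and 17.6% and 14.4% in control HSPC. With 2 libraries against 2 an exact permutation test cannot go below p = 0.33, so these shares stand without a test. For each E2f1 read there were 7.09 and 11.1 E2f2 reads in caNIK and 0.618 and 0.621 in control HSPC.

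The summed level of the 8 members was 838 and 1236 CPM in caNIK and 579 and 673 CPM in control HSPC. Without E2f2 it was 489 and 651 CPM in caNIK and 535 and 624 CPM in control HSPC. The groups were apart in the first sum and overlapped in the second.

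**Figure D3:**
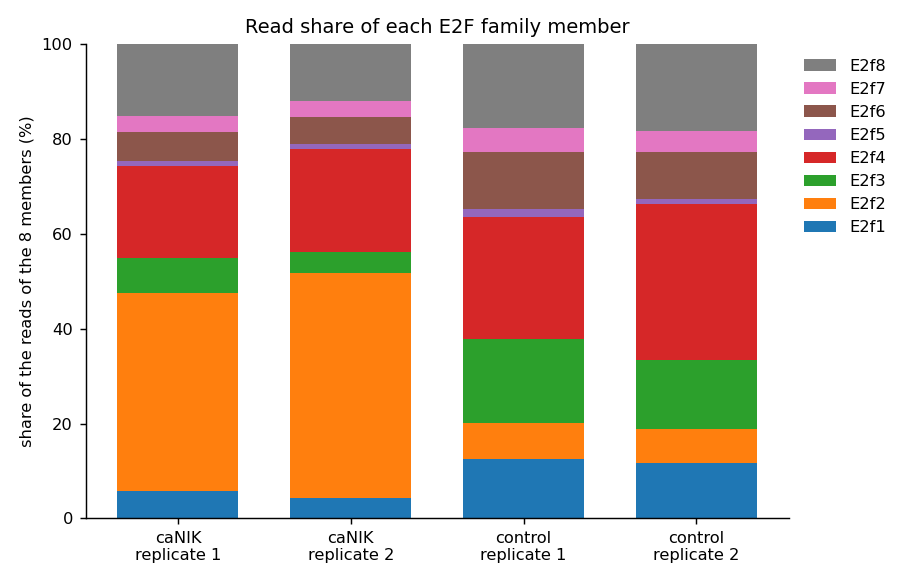
Share of the summed E2F reads taken by each member, in percent, in the 2 caNIK and the 2 control libraries. Shares are not corrected for transcript length and are for comparison between libraries. E2f2 fills 41.6% and 47.4% of the caNIK columns and 7.69% and 7.24% of the control columns.

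Members can be ordered against each other only per length, here CPM per kb of exon from the GENCODE M21 annotation of GRCm38. In caNIK HSPC E2f4 led with 108 ± 36.9 CPM per kb, followed by E2f2 with 98.6 ± 35.4, and their ranges overlapped. E2f8 followed with 35.5 ± 4.17, E2f6 with 25.0 ± 5.30, E2f1 with 16.2 ± 0.808 and E2f3 with 11.1 ± 0.581 CPM per kb (SD, n = 2). E2f5 with 6.38 ± 1.99 and E2f7 with 4.46 ± 1.11 CPM per kb came last, and did not differ beyond their spread.

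In control HSPC E2f4 also led, with 93.1 ± 25.5 CPM per kb. E2f8 with 29.2 ± 3.69 and E2f6 with 28.2 ± 0.972 CPM per kb overlapped, and E2f1 with 23.9 ± 1.43, E2f3 with 18.6 ± 0.699 and E2f2 with 9.84 ± 0.625 followed. E2f5 stood at 4.76 ± 0.716 and E2f7 at 3.71 ± 0.156 CPM per kb. E2f2 was thus at position 2 of 8 in caNIK and at position 6 of 8 in control HSPC, the highest of the 3 activators in caNIK and the lowest of them in control HSPC.

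E2f2 is abundant in red cell precursors, and markers of other cell types also differed between the groups. The summed level of the 17 erythroid markers in the tables was 4326 and 6859 CPM in caNIK and 745 and 1527 CPM in control HSPC. Of 13 tested, 8 rose and 0 fell (median 2.48 on the log2 scale), where 13.8% of all tested genes rose and 8.21% fell. The 4 adult globin genes Hbb-bt, Hbb-bs, Hba-a1 and Hba-a2 were listed at 0 in all libraries. The carbonic anhydrase gene Car2 lay at 1860 and 2604 CPM in caNIK and 318 and 441 CPM in control HSPC, and the spectrin gene Sptb at 525 and 919 CPM in caNIK and 17.4 and 90.1 CPM in control HSPC. The transferrin receptor gene Tfrc, which did not pass (edgeR adjusted p = 0.054), lay at 548 and 848 CPM in caNIK and 229 and 419 CPM in control HSPC.

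Within the groups the erythroid markers and E2f2 did not always move alike. In caNIK HSPC replicate 2 was higher in both, by 0.77 on the log2 scale in the median tested erythroid marker and by 0.75 for E2f2. In control HSPC replicate 2 was higher by 1.48 in the median erythroid marker and by 0.13 for E2f2. Mast cell markers, 6 in the tables, summed to 2124 and 1123 CPM in caNIK and 50.5 and 49.1 CPM in control HSPC, and so were lower in caNIK replicate 2, where E2f2 was higher. The part of these cell types in the E2f2 level was not tested, and in sorted bulk cells more cells of a type and more RNA per cell cannot be told apart.

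**Figure D4:**
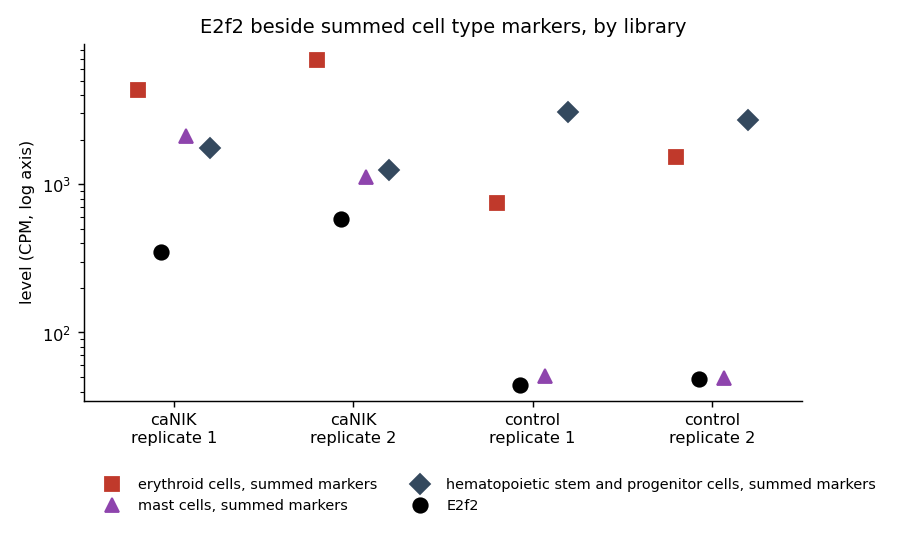
Level of E2f2 (black circles) beside the summed levels of markers of erythroid cells, mast cells and HSPC in each library, in CPM on a log axis. E2f2 and the erythroid sum are higher in both caNIK libraries, while the erythroid sum also differs between the control libraries (745 and 1527 CPM), where E2f2 lies at 44.6 and 48.7 CPM.

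The genes whose pattern lay closest to that of E2f2 were sought by the Euclidean distance of centred log2 CPM over the 4 libraries, among genes on none of the lists. They were Slc6a9 (distance 0.13), a glycine transporter gene, Nhsl1 (0.18), Stfa1 (0.22), of the stefin protease inhibitors, Klhl36 (0.27) and Tspear (0.27). Slc6a9 lay at 23.3 and 37.0 CPM in caNIK and 2.59 and 2.85 CPM in control HSPC. Stfa1 has close copies in the genome, and its reads may be shared among them. With 4 libraries in 2 groups, any gene that is higher in caNIK by a like amount lies close.

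Of the partners and regulators of E2F, the retinoblastoma gene rose and the DP genes did not pass. Rb1, whose product binds and silences the activators, had 76.0 and 92.4 CPM in caNIK and 31.3 and 37.6 CPM in control HSPC. The groups were well apart, by 1.29 ± 0.18 (SE) on the log2 scale (edgeR adjusted p = 0.0044). Rbl2, the p130 partner of E2f4 in quiescent cells, had 148 and 88.7 CPM in caNIK and 70.6 and 74.1 CPM in control HSPC. It did not pass (log2 fold change 0.71, edgeR adjusted p = 0.09), but passed without caNIK replicate 2 (1.01, adjusted p = 0.0073) and by DESeq2 (adjusted p = 0.037). Rbl1, the p107 gene and itself an E2F target, had 120 and 152 CPM in caNIK and 168 and 156 CPM in control HSPC, with a log2 fold change of -0.25 (edgeR adjusted p = 0.33).

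The dimer partners Tfdp1 and Tfdp2 had log2 fold changes of -0.31 and -0.33 (edgeR adjusted p = 0.2 for both). Tfdp1 lay at 259 and 302 CPM in caNIK and 328 and 367 CPM in control HSPC. Neither had an unadjusted p under 0.05 in edgeR, and neither passed by DESeq2 or limma-voom.

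Of the 7 genes of the MuvB core and its partners, which repress or activate cell cycle genes together with E2f4 and the pocket proteins or with B-Myb and FoxM1, 0 passed in edgeR, 0 had an unadjusted p under 0.05 and 0 passed by DESeq2 or limma-voom. Their log2 fold changes ran from -0.46 to 0.32. Of the 12 genes of the E2F6 repressor complex 0 passed in edgeR and limma-voom, 1 had an unadjusted p under 0.05 and 1 passed as lower by DESeq2, and 10 had a negative fold change. Without caNIK replicate 1 edgeR called 1 of them lower.

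G1/S cyclins and their kinases release E2F from the pocket proteins. Among 9 such genes, the phosphatase gene Cdc25a counted with them, 1 rose and 1 fell. That is 22.2%, where 22.0% of all tested genes passed. Cdk6, a cyclin D kinase, had 226 and 273 CPM in caNIK and 79.5 and 115 CPM in control HSPC, and rose by 1.36 ± 0.22 (SE) on the log2 scale (edgeR adjusted p = 0.0067). Cdk4, the other cyclin D kinase, had 301 and 353 CPM in caNIK and 490 and 476 CPM in control HSPC, and fell by 0.56 ± 0.15 on the log2 scale (edgeR adjusted p = 0.037). The call for Cdk4 was lost without control replicate 1 (adjusted p = 0.22) or control replicate 2 (0.17). The counts in this list were 3 higher and 2 lower without caNIK replicate 1.

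Of 6 genes that control the turnover of E2F proteins and other cell cycle proteins, 1 fell, or 16.7%, where 22.0% of all tested genes passed. This was Dtl, part of the ligase that acts on chromatin-bound proteins in S phase. It had 107 and 126 CPM in caNIK and 195 and 177 CPM in control HSPC (log2 fold change -0.67, edgeR adjusted p = 0.025). Its call was lost without control replicate 1 (adjusted p = 0.14) or control replicate 2 (0.059). Without caNIK replicate 1 this list had 1 higher member.

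Known E2F target genes moved in both directions, and most did not pass. Over 4 lists with 69 distinct target genes, 6 rose, 7 fell and 56 did not pass, so that 18.8% passed where 22.0% of all tested genes did. Among the 6 was Trp73, which passed the filter on low counts only through the caNIK libraries, so it had to differ. That gene is kept in the counts of target genes given here and below. The median log2 fold change was -0.16, against 0.00 over all tested genes. In the median target gene caNIK replicate 2 lay above replicate 1 by 0.41 on the log2 scale, and control replicate 2 above replicate 1 by 0.07. Counts were 12 higher and 1 lower without caNIK replicate 1, 6 higher and 15 lower without caNIK replicate 2, and 6 higher and 1 lower when either of the control replicates was left out. The erythroid and mast cell markers described above differed between the same groups, and their part in the target lists was not tested.

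Of 30 target genes of DNA replication and nucleotide supply, 13.3% passed, where 22.0% of all tested genes did. Of the 30, 23 had a negative fold change, as did 7057 of all 14191 tested genes. The median was -0.26, and 0 rose and 4 fell. The 4 were Cdt1, which loads the replicative helicase, at 77.1 and 96.1 CPM in caNIK and 138 and 173 CPM in control HSPC (log2 fold change -0.85, edgeR adjusted p = 0.022), Gins2 of the same helicase (-0.68), Dut, which clears dUTP (-0.71), and Mcm10, an initiation factor (-0.68). Dut lay at 120 and 166 CPM in caNIK and 249 and 220 CPM in control HSPC, Gins2 at 29.8 and 29.1 CPM in caNIK and 45.5 and 48.6 CPM in control HSPC, and Mcm10 at 54.1 and 73.7 CPM in caNIK and 96.4 and 108 CPM in control HSPC. In all 4 genes the groups did not overlap, which was so for 17 of the 30 and for 64.9% of all tested genes. Mcm10 lay at the threshold (edgeR adjusted p = 0.05) and was not called with median-of-ratios factors (0.053). Its call was also lost without caNIK replicate 1, control replicate 1 or control replicate 2. Gins2 lost its call whichever library was left out, with log2 fold changes of -0.74 to -0.63. The call of Dut was lost without caNIK replicate 1 (-0.49) or control replicate 1 (-0.64). That of Cdt1 was lost without caNIK replicate 1 (-0.69) or control replicate 2 (-0.67). Without caNIK replicate 1, 0 were lower and 2 higher. There were 9 lower without caNIK replicate 2, and 1 lower when either of the control replicates was left out.

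Of 18 target genes of chromatin, checkpoint and repair, 16.7% passed, where 22.0% of all tested genes did. The median was -0.31, and 0 rose and 3 fell. Among these were the recombination gene Brca2, at 65.1 and 69.6 CPM in caNIK and 100.1 and 107 CPM in control HSPC (log2 fold change -0.62, edgeR adjusted p = 0.027), and the chromatin remodeller gene Hells, at 96.0 and 98.1 CPM in caNIK and 151 and 132 CPM in control HSPC (-0.54, adjusted p = 0.044). The groups did not overlap in either gene, which was so for 12 of the 18 and for 64.9% of all tested genes. The call of Hells was lost whichever library was left out, with log2 fold changes of -0.64 to -0.46. That of Brca2 was lost without caNIK replicate 1 (-0.57), control replicate 1 (-0.68) or control replicate 2 (-0.57). Members past the threshold were 1 higher and 1 lower without caNIK replicate 1, 5 lower without caNIK replicate 2 and 0 lower when either of the control replicates was left out.

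Of 13 target genes of mitosis, 1 rose and 0 fell, or 7.69%, where 22.0% of all tested genes passed. The median was 0.21. Mki67, the proliferation marker, had 1556 and 2373 CPM in caNIK and 894 and 987 CPM in control HSPC, and rose by 1.06 ± 0.22 (SE) on the log2 scale (edgeR adjusted p = 0.016). Without caNIK replicate 1 there were 4 higher members. Without caNIK replicate 2 there was 1 lower member beside Mki67, and the median was -0.19.

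Of 8 target genes of cell death, 5 were called higher and 0 lower, or 62.5%, with a median of 1.16. Over all tested genes 13.8% were higher. One of the 5, Trp73, passed the filter on low counts only through the caNIK libraries, so it had to differ. Of the other 7, 4 rose, or 57.1% against the same 13.8%, with a median of 1.09. Several of them are also targets of p53. The BH3-only genes Pmaip1 and Bbc3 lay at 87.0 and 116 CPM and at 30.0 and 32.7 CPM in caNIK, against 2.70 and 2.39 CPM and 7.94 and 10.4 CPM in control HSPC. On the log2 scale they rose by 5.32 ± 0.24 and 1.77 ± 0.25 (SE), with edgeR adjusted p = 8.4e-05 and 0.004. Apaf1, the scaffold of the apoptosome, rose by 1.09 ± 0.17 and Bcl2l11, the BH3-only gene Bim, by 1.23 ± 0.22 on the log2 scale (edgeR adjusted p = 0.0068 and 0.0094). The p53 relative Trp73, a textbook E2F1 target named after its values were seen, had 111 reads over the caNIK libraries and 3 over the control libraries. That is a ratio of 40.2 with an exact 95% counting interval of 13.4 to 198. Its fitted log2 fold change of 5.26 was 4.40 without control replicate 1 and 8.80 without control replicate 2, and its call was lost without caNIK replicate 1 (edgeR adjusted p = 0.064).

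**Figure D5:**
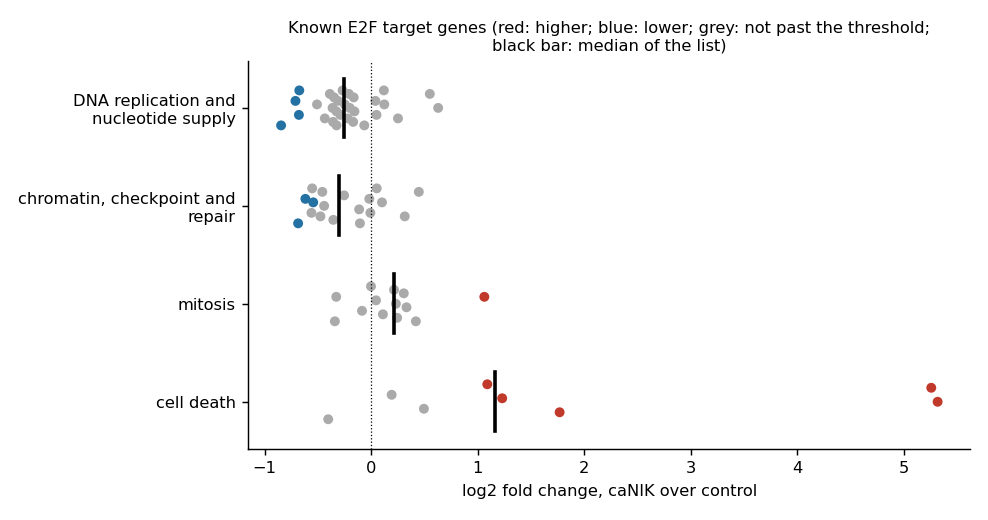
Log2 fold change of caNIK over control HSPC for the tested genes of 4 lists of known E2F targets, each point a gene and each black bar the median of its list. The replication list centres at -0.26, the chromatin, checkpoint and repair list at -0.31, the mitosis list at 0.21 and the cell death list at 1.16.

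Of 10 germ line genes that E2f6 is known to hold down in somatic cells, 3 passed the filter on low counts. They reached it in each group alone, and each was lower in caNIK HSPC, where 8.21% of all tested genes were lower. Ddx4, a germ line RNA helicase gene, had 2.15 and 1.11 CPM in caNIK and 31.1 and 22.4 CPM in control HSPC. Tdrkh, of the piRNA pathway, had 4.30 and 3.95 CPM in caNIK and 22.8 and 19.5 CPM in control HSPC, and Stag3, a meiotic cohesin gene, 7.89 and 6.41 CPM and 14.5 and 16.9 CPM in the same order. On the log2 scale the changes were -4.04 for Ddx4, -2.36 for Tdrkh and -1.13 for Stag3 (edgeR adjusted p = 0.0012, 0.0023 and 0.036). The call for Stag3 was lost without caNIK replicate 2 (adjusted p = 0.09), control replicate 1 (0.059) or control replicate 2 (0.16). The other 7 stayed under 1 CPM in each library.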

How the data were processed

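Total RNA of sort-purified HSPC was sequenced in 4 libraries. The authors deposited whole-number read counts per gene symbol, not normalized, per the file headers and values. Per the submitters' processing notes, FastQC, TopHat2 2.1.0, featureCounts 1.5.0, DESeq2 1.10.1 and build mm9 were used. The annotation, the strand setting and the handling of multiply matching reads were not given in the sources used here.

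Groups came from the sample titles. The test was edgeR 4.0.16 under R 4.3.3: filterByExpr, TMM, glmQLFit with group as only term, two-sided glmQLFTest, Benjamini-Hochberg adjustment over 14191 genes, threshold 0.05. SE came from the F statistic. The edgeR fit was tested on counts simulated for this comparison over 13934 genes, where it called 38 of 95 genes changed by 1 and 77 of 99 changed by 2 on the log2 scale, in the right direction. Alternatives were other scalings and filters, DESeq2 1.42.0, limma-voom (limma 3.58.1), the replicate number as a block and each library left out. Exon lengths came from GENCODE M21 and promoters from RefSeq (GRCm38.p6), which held 6 of 8 members.

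Members and lists were chosen with earlier results of these data known. Named were all members, small lists whole, up to 4 genes of smallest p past the threshold per list, the 3 highest markers per cell type and the 5 genes most like E2f2. Some genes that this rule names are not reported here.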

Additional observations from a re-analysis of the deposited data

How the results depend on the processing

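The rise of E2f2 was called under all 12 alternatives (2.88 to 3.65). E2f1 and E2f3 were called as lower under the 8 that kept all libraries. Leaving out a library leaves 1 in its group, which is then assumed to vary like the other group. In those fits E2f1 ranged from -0.64 to -0.50 and was never called, E2f3 from -0.80 to -0.71 (called in 3 of 4), E2f4 from -0.21 to 0.53, E2f6 from -0.43 to 0.032 and E2f7 from -0.031 to 0.51, none of the last 3 called; 1 to 2 members passed, 0 to 1 lower.

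The replicate numbers were shared by the groups, but nothing in the labels pairs them, and deviations of same-numbered libraries correlated at 0.21. With the replicate block, 1766 genes fell over all genes (1165 without it), and 12 of the 69 target genes, 7 chromatin, checkpoint and repair genes and 1 gene of the E2F6 complex were lower; 2 pocket proteins, 1 turnover gene and 1 replication gene were higher. E2F calls were the same. With median-of-ratios factors the call of Mcm10 was lost, leaving 3 replication genes lower and 12 target genes past the threshold. With library totals 11 target genes were lower, 6 of them in the chromatin, checkpoint and repair list, a list that also had 6 with upper-quartile factors and 5 with DESeq2 or the filter of 1 read. With upper-quartile factors, DESeq2 or that filter 1 gene of the E2F6 complex was lower, and with DESeq2 or that filter 2 pocket proteins and 1 turnover gene were higher.

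Without 1 library, target genes past the threshold numbered 7 to 21 (6 to 12 higher, 1 to 15 lower). By list these were replication 0 to 2 higher and 0 to 9 lower, chromatin 0 to 1 and 0 to 5, mitosis 1 to 4 and 0 to 1, G1/S 1 to 3 and 0 to 2, turnover 0 to 1 and 0 to 1, pocket proteins 1 to 2 higher, and the E2F6 complex 0 to 1 lower. The cause of these shifts was not tested. The position of E2f2 per kb was the same with the longest transcript as length, an alternative chosen after seeing the data. With that length E2f5 and E2f7, at positions 7 and 8 of 8, changed places in both groups. Depth limits E2f5, with 165 to 288 reads a library, most of the members.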

Other observations

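Markers of further blood cell types were measured beside the E2F genes, without a test of their part in any E2F value. Calls among them are read against all tested genes, of which 13.8% were higher and 8.21% lower. The 7 megakaryocyte markers summed to 588 and 462 CPM in caNIK and 98.8 and 196 CPM in control HSPC, with 4 higher and 1 lower. Their leading genes were Itgb3 (339 and 242 CPM in caNIK, 16.1 and 32.0 CPM in control HSPC), Itga2b and Pf4. The 11 granulocyte and monocyte markers summed to 452 and 742 CPM in caNIK and 1422 and 3313 CPM in control HSPC, with 4 higher and 4 lower. Among them Mpo lay at 61.3 and 66.0 CPM in caNIK and 1038 and 2504 CPM in control HSPC, whereas Lyz2 lay at 98.5 and 273 CPM in caNIK and 54.3 and 51.3 CPM in control HSPC, and Ctsg did not pass. B cell markers summed to 73.5 and 48.1 CPM in caNIK and 88.9 and 59.3 CPM in control HSPC, led by Cd79b, Cd79a and Ebf1. T and NK cell markers summed to 117 and 42.2 CPM in caNIK and 54.3 and 24.4 CPM in control HSPC, led by Cd4, Cd8a and Cd3g. The leading mast cell markers were the protease genes Tpsb2 (704 and 357 CPM in caNIK, 7.78 and 4.39 CPM in control HSPC), Mcpt4 and Cma1.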
